A study of Canis lupus familiaris with 6 samples.

Results

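NTSR1, FAM71F2, PNLIPRP3 and KIRREL2 are 4 genes that were close to silent under normoxia and carried many more reads under hypoxia. The cells were CMM10, an established line from a dog melanoma. The genes were taken by symbol from the 29822 genes measured. They were selected on their reads in these same libraries: each had fewer than 30 reads over the normoxia libraries together and a large rise under hypoxia. For that reason their difference between the conditions is described here without a test. The groups were 3 libraries of CMM10 cells kept under hypoxia and 3 libraries of the same line kept under normoxia, from polyadenylated RNA sequenced as paired reads. The labels give no oxygen level, no duration and no statement that the libraries came from separate cultures, so the spread between libraries may be technical. CMM10 is 1 cell line, and how the difference holds in other melanomas was not measured.

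Cells that lack oxygen stabilise the alpha subunits of the hypoxia-inducible factors (HIF), which enter the nucleus and raise the transcription of genes for glucose uptake, glycolysis, blood vessel growth and pH control. NTSR1 is the main receptor for neurotensin, a gut and brain peptide, and signals through Gq proteins and phospholipase C. FAM71F2 belongs to a family of Golgi-associated proteins that bind the small GTPase RAB2 and are best known from mouse testis. PNLIPRP3 is a relative of pancreatic lipase, the secreted enzyme that splits dietary triglycerides, and KIRREL2 is an immunoglobulin-type adhesion protein of the nephrin family, known from kidney podocytes and pancreatic islet cells.

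The 6 libraries held between 23196647 and 28804337 reads assigned to genes, and the hypoxia libraries were the deeper ones. In each library more genes had 2 reads than 1 (1285 to 1388 against 865 to 1007) and more had 4 than 3 (649 to 696 against 472 to 536), the pattern that arises when both reads of a pair are counted. Read numbers below are therefore not taken as independent fragments. As a check of the label, the melanocyte genes SOX10, MITF and DCT were present at 72.2, 23.5 and 44.8 TPM (the deposited level, corrected for exon length and depth) under hypoxia and 54.5, 24.5 and 52.9 TPM under normoxia, whereas TYR was listed at 0 TPM in every library. Under hypoxia and normoxia in turn, SLC45A2 stood at 31.7 and 24.0 TPM, PMEL at 1.75 and 1.76, and S100B at 0.94 and 0.81. MLANA stood at 0.65 and 1.47 TPM and TYRP1 at 0.02 and 0.02, so several pigment genes were low or nearly absent. Of 9 melanocyte markers, 5 reached 1 TPM under hypoxia and 6 under normoxia, and their sum was 168.2 to 182.2 TPM under hypoxia and 152.8 to 169.8 TPM under normoxia. Epithelial markers were high as well, with 4 of 4 at 1 TPM or more and sums of 1145 to 1292 TPM under hypoxia and 449.3 to 467.6 TPM under normoxia. Of these markers KRT14 stood at 948.6 TPM under hypoxia and 193.2 TPM under normoxia, CDH1 at 137.2 and 101 TPM, EPCAM at 144.7 and 162.7 TPM, and KRT18 at 1.26 and 2.55 TPM.

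NTSR1 (ENSCAFG00000012720, plus strand, chromosome 24 from 46576501 to 46615206 of CanFam3.1, 4 exons) showed the largest rise of the 4. It had 195, 185 and 161 reads in hypoxia libraries 1, 2 and 3, against 2, 2 and 0 reads in the normoxia libraries. Every hypoxia library was far above every normoxia library, and the hypoxia libraries lay close together. In CPM, which is reads scaled by depth with TMM factors, the mean was 6.54 ± 0.42 under hypoxia and 0.049 ± 0.043 under normoxia (SD, n = 3 each). The fitted log2 change was 6.87 ± 0.35 (SE), which ranked first of 11626 tested genes that carry a symbol and average 1 CPM or more. Among all 15397 tested genes NTSR1 ranked 3, below IGFBP2 and ITIH2, which the bound of 1 CPM left out. All 4 genes had conditions that did not overlap, as had 27.8% of all tested genes with hypoxia higher and 55.3% in either direction. Since the choice of the 4 used these values, nothing is read from that count or from the ranks. Summed reads differed 122-fold after allowing for depth (541 reads under hypoxia, 4 under normoxia). The exact 95% interval of that ratio was 33.3 to 1009 when read numbers were halved to allow for pairs, and it covers counting error only. In bulk RNA, more cells that express a gene and more RNA in each cell cannot be told apart, here or for the genes that follow.

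The normoxia reads of NTSR1 lay outside its exons. All 4 were classed as intron reads, and the exons held 0 reads in each normoxia library, against 156, 157 and 144 exon reads in the hypoxia libraries. The deposited TPM, which rests on exon reads, was 3.70, 3.83 and 3.71 under hypoxia and was listed at 0 in all normoxia libraries. With read numbers halved to allow for pairs, the exact 95% lower limit of the exon ratio was 55.2-fold. Of 10872 genes with no normoxia exon read, NTSR1 had the most hypoxia exon reads (457). The next was IGFBP2, which codes for a binding protein of insulin-like growth factors, with 73. NTSR1 was chosen on its reads in these same libraries, so nothing is read from its place in that list.

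**Figure D1:**
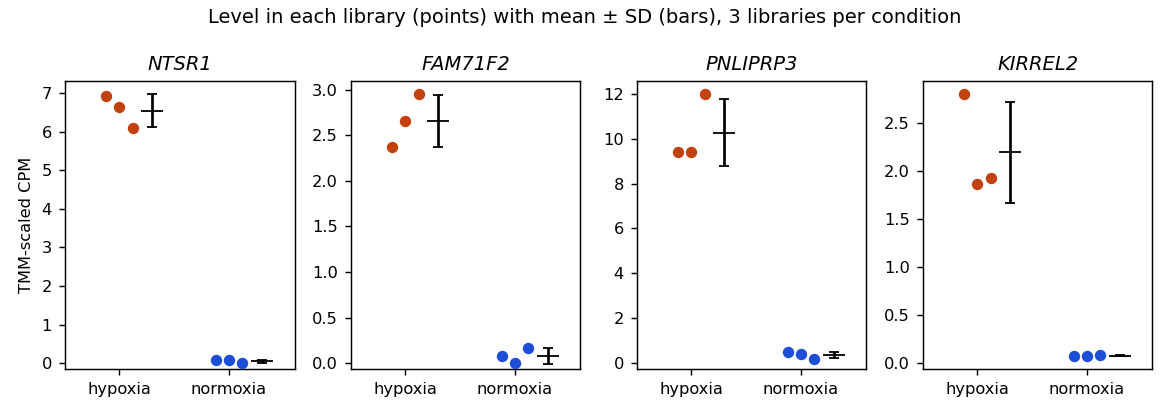
CPM after TMM scaling (y axis, a separate linear scale for each gene) of the 4 genes in each hypoxia library (orange, left) and normoxia library (blue, right), with mean ± SD of 3 libraries. The hypoxia means were 6.54 (NTSR1), 2.66 (FAM71F2), 10.3 (PNLIPRP3) and 2.20 CPM (KIRREL2), and no normoxia library reached 0.5 CPM for any of them.

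PNLIPRP3 (ENSCAFG00000045231, plus strand, chromosome 28 from 27058258 to 27091134, 12 exons) reached the highest level of the 4. It had 265, 263 and 317 reads in hypoxia libraries 1, 2 and 3, against 13, 11 and 5 reads in normoxia libraries 1, 2 and 3. Hypoxia library 3 was the highest, and the conditions did not overlap. Mean levels were 10.3 ± 1.48 CPM under hypoxia and 0.37 ± 0.14 CPM under normoxia (SD, n = 3 each), a log2 change of 4.77 ± 0.22 (SE). Its TPM, a level per exon length that can be compared between genes, was 10.9 ± 1.42 under hypoxia and 0.12 ± 0.11 under normoxia, above NTSR1 at 3.74 ± 0.074 TPM under hypoxia.

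Exon and intron reads of PNLIPRP3 differed in how much they rose. Exon reads numbered 206, 200 and 236 under hypoxia and 4, 3 and 0 under normoxia, an 82.6-fold difference of the sums after allowing for depth. Intron reads numbered 59, 63 and 81 under hypoxia and 9, 8 and 5 under normoxia, an 8.31-fold difference. With read numbers halved, the exact 95% counting intervals were 27.95 to 267 for the exon ratio and 4.48 to 17.3 for the intron ratio. Introns thus held 22 of the 29 normoxia reads and 203 of the 845 hypoxia reads. Part of the normoxia reads also mapped to more than 1 place, since 21 of the 29 were unique, against 830 of 845 under hypoxia.

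FAM71F2 (ENSCAFG00000001645, minus strand, chromosome 14 from 7937322 to 7949115, 5 exons) had 67, 74 and 78 reads in hypoxia libraries 1, 2 and 3, against 2, 0 and 4 reads in normoxia libraries 1, 2 and 3. The conditions were far apart and the hypoxia libraries differed little. Mean levels were 2.66 ± 0.29 CPM under hypoxia and 0.081 ± 0.084 CPM under normoxia (SD, n = 3 each), a log2 change of 5.02 ± 0.47 (SE). This log2 change shifts when 1 library is left out. It was 5.99 without normoxia replicate 3, which holds 4 of the 6 normoxia reads, and 4.42 without normoxia replicate 2. TPM was 1.58, 1.73 and 1.35 under hypoxia and 0, 0 and 0.12 under normoxia.

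Most FAM71F2 reads were not in annotated exons. Intron reads were 34, 39 and 52 of the hypoxia reads, or 57.1% of their sum. The exons held 33, 35 and 26 reads under hypoxia and 0, 0 and 2 under normoxia, and 32 of the 94 hypoxia exon reads crossed an exon junction. The label "intron" covers more than introns in these files: of 787 single-exon models of at least 50 reads with no intron, 647 had reads of that class (median 14.0% of reads), so it takes in reads that run past the annotated exons.

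KIRREL2 (ENSCAFG00000006728, minus strand, chromosome 1 from 116784745 to 116792709, 19 exons) had the lowest hypoxia level of the 4. It had 79, 52 and 51 reads in hypoxia libraries 1, 2 and 3, against 2 reads in each normoxia library. Hypoxia library 1 stood above the other two, and all were well above normoxia. Mean levels were 2.20 ± 0.52 CPM under hypoxia and 0.077 ± 0.0058 CPM under normoxia (SD, n = 3 each), a log2 change of 4.75 ± 0.47 (SE). TPM was 1.73, 1.27 and 1.25 under hypoxia and 0.060, 0 and 0.069 under normoxia, and this level did not differ beyond its spread from that of FAM71F2 (1.42 ± 0.27 against 1.55 ± 0.19 TPM under hypoxia). Exon reads were 63, 45 and 42 under hypoxia and 2, 0 and 2 under normoxia. Of the 150 hypoxia exon reads, 95 joined annotated exons.

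The read classes set the 4 genes apart under hypoxia, a property that did not enter their choice. Intron reads were 15.5% for NTSR1, 17.6% for KIRREL2, 24.0% for PNLIPRP3 and 57.1% for FAM71F2, where the median was 42.1% over 3758 coding genes with at least 2 exons and 50 to 1000 hypoxia reads (quartiles 21.3% and 72.1%). Per kilobase, exons of NTSR1 held 55.9 times and those of PNLIPRP3 59.3 times the reads of their introns, KIRREL2 7.93 times and FAM71F2 4.47 times, beside a median of 10.1. Junction reads were 76.3% of the exon reads of PNLIPRP3 and 63.3% for KIRREL2, against 34.04% for FAM71F2 and 14.2% for NTSR1. The genes also differ in how many junctions the annotation places in a kilobase of exon, with 6.61 for PNLIPRP3 and 6.09 for KIRREL2 but 2.36 for FAM71F2 and 0.87 for NTSR1. All hypoxia reads of NTSR1, FAM71F2 and KIRREL2 mapped uniquely, as did 98.2% of those of PNLIPRP3.

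**Figure D2:**
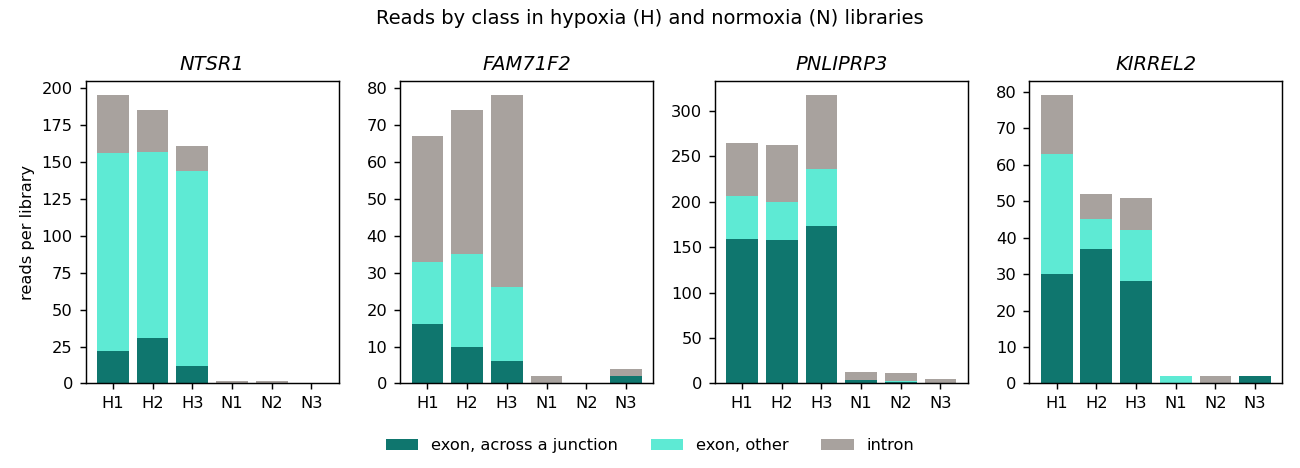
Reads per library (y axis, a separate linear scale for each gene, starting at 0) in hypoxia libraries H1 to H3 and normoxia libraries N1 to N3, split into exon reads across a junction (dark green), other exon reads (light green) and intron reads (grey). PNLIPRP3 is mostly junction reads (490 of 845 hypoxia reads), NTSR1 mostly other exon reads, and FAM71F2 mostly intron reads (125 of 219).

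The coefficient of variation of CPM among the hypoxia libraries was 6.46% for NTSR1, where counting error gives 7.45% for independent reads and 10.5% with reads halved. For FAM71F2 it was 10.8%, where counting error gives 11.7% and 16.6%. Both values thus lay below counting error. Each coefficient rests on 3 libraries and is itself uncertain, and whether any gene departs from counting error was not tested. The spread was larger than counting error for PNLIPRP3 (14.4%, against 5.96%, or 8.43% with reads halved) and for KIRREL2 (23.9%, against 12.8%, or 18.2% with reads halved). In PNLIPRP3 the high library was replicate 3 and in KIRREL2 it was replicate 1, so the same library was not high in both.

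Across the whole table, 14802 genes had fewer than 30 normoxia reads, and 12 of these had at least 150 hypoxia reads. In the opposite direction, 14411 genes had fewer than 30 hypoxia reads, and 2 of these had at least 150 normoxia reads. With libraries scaled to equal totals the numbers were 10 and 2, and from exon reads alone, a count added after the data were seen, they were 11 and 0. PNLIPRP3 was not among those 10, because its scaled normoxia reads passed the bound of 30. FAM71F2 was not among the 11 from exon reads. PNLIPRP3 and NTSR1 had the most hypoxia reads of the 12 (845 and 541), FAM71F2 ranked 8 and KIRREL2 ranked 10. Of the other 8, the 5 with a symbol were NDUFA4L2, a mitochondrial protein that HIF induces (503 reads under hypoxia, 27 under normoxia), MAB21L3 (340 and 22), the semaphorin SEMA3G (237 and 24), ISLR2 (166 and 25) and the transcription factor EGR3 (153 and 28). The others had no symbol, and 2 of them were long non-coding RNAs.

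The bound of 30 reads fell close to PNLIPRP3, which had 29. Just outside it, among genes with 150 or more hypoxia reads, were the peroxidase gene LPO (188 reads under hypoxia, 30 under normoxia) and FAM83A (234 and 35). With the bound of 30 reads passed, the largest rises among named genes of at least 1 CPM were those of BNIP3, a mitophagy receptor (570 ± 10.2 CPM under hypoxia, 22.8 ± 4.39 under normoxia, log2 change 4.64 ± 0.13 SE), ADM, a vasodilator peptide (202 ± 5.56 and 8.62 ± 1.24 CPM, 4.55 ± 0.063) and TMEM45A (66.4 ± 2.52 and 3.105 ± 0.34 CPM, 4.41 ± 0.085). The log2 changes of KIRREL2 and BNIP3 did not differ beyond their standard errors.

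**Figure D3:**
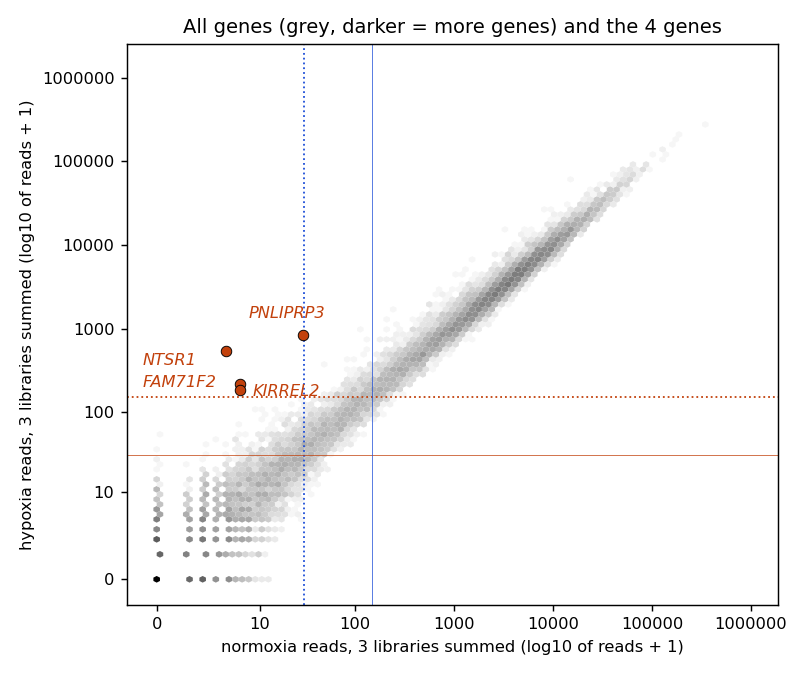
Reads under hypoxia (y axis) against reads under normoxia (x axis), each summed over 3 libraries and shown as log10 of reads + 1, for all genes (grey, darker where more genes fall) and the 4 genes (orange). Dotted lines mark fewer than 30 normoxia and at least 150 hypoxia reads, and thin solid lines mark the same bounds with the conditions exchanged. The 4 genes lie in the sparse upper left, which holds 12 genes, against 2 in the lower right.

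For each gene the most similar profiles over the 6 libraries were found by Pearson's r of log2(CPM + 0.5) among 11625 other named genes of at least 1 CPM. They were CTSD, DHRS2 and ZNF394 for NTSR1 (r at least 0.9997), BHLHE40, SNAPC1 and ENTPD3 for PNLIPRP3 (at least 0.9997), OSBP, ABHD18 and INSIG1 for FAM71F2 (at least 0.9994) and LOXL3, DEGS2 and RWDD4 for KIRREL2 (at least 0.997). These values rest on the gap between 2 conditions, and 128 to 479 genes exceeded 0.99 for each of the 4, so the order among them carries little. The 4 genes correlated with each other at 0.977 to 0.995.

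Genes related to the 4 were listed by family and pathway. A gene was called when edgeR's quasi-likelihood test gave a Benjamini-Hochberg adjusted p below 0.05 over all 15397 tested genes. By that rule 24.5% of all tested genes were higher and 24.4% lower under hypoxia (49% in all; 24.4% were higher from exon reads alone), and the median log2 change of all tested genes was 0.00. In the neurotensin list, which holds the peptide, its processing enzymes, receptors, G proteins, effectors and peptidases, 4 of 20 tested genes were higher and 5 lower (near the background), with a median log2 change of -0.02. Of the nephrin and slit diaphragm list, 7 of 13 were higher and 2 lower (median 0.13), of the lipase list 3 of 13 were higher and 2 lower (median 0.00), and of the FAM71 and RAB2 list 3 of 4 were higher and 0 lower (median 0.38).

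The neurotensin peptide gene NTS had 7 reads over the hypoxia libraries and 1 over the normoxia libraries, too few for the test. The paralogous receptor gene NTSR2 had 2 reads under hypoxia and 6 under normoxia. SORT1, a sorting receptor that also binds neurotensin, was abundant at 96.1 ± 1.26 CPM under hypoxia and 97.0 ± 1.71 CPM under normoxia (SD, n = 3 each) and was not called (log2 change -0.01 ± 0.042 SE). The peptide and the paralog thus stayed at 7 reads or fewer in both conditions.

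Downstream of such receptors, PRKCA and PRKCE, protein kinases C that respond to phospholipase C, were higher under hypoxia by edgeR with Benjamini-Hochberg adjustment (log2 change 0.31 ± 0.046, adjusted p = 9.69e-07, and 0.33 ± 0.055, adjusted p = 7.08e-06). From exon reads alone PRKCE was 0.13 with an adjusted p of 0.371 by edgeR, and 79.5% of its reads were intronic. PLCB3 and EGR1 were lower, and so was PCSK6, which stands in the list as a processing enzyme and not as an effector. The call of PCSK6 was lost from exon reads alone (adjusted p = 0.0695 by edgeR), and that of EGR1 from exon reads alone (adjusted p = 0.159 by edgeR) and without hypoxia replicate 1, normoxia replicate 1 or normoxia replicate 3 (adjusted p = 0.154, 0.0672 and 0.125 by edgeR). The arrestins, which end receptor signalling, moved apart: ARRB1 was higher (3.87 ± 0.75 CPM under hypoxia, 2.61 ± 0.13 under normoxia, adjusted p = 0.0152 by edgeR) and ARRB2 lower (12.9 ± 0.80 and 18.5 ± 2.29 CPM, adjusted p = 2.28e-05 by edgeR). ARRB1 lost its call without hypoxia replicate 1 or 3 (adjusted p = 0.0890 and 0.0616 by edgeR).

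Among peptidases that cleave neurotensin, THOP1 fell to 87.1 ± 1.48 CPM under hypoxia, against 130 ± 3.13 CPM under normoxia (log2 change -0.57 ± 0.041 SE, adjusted p = 2.26e-13 by edgeR). MME, the membrane protease neprilysin, was higher at 5.63 ± 1.38 against 3.50 ± 0.16 CPM (0.68 ± 0.17, adjusted p = 0.00137 by edgeR). NLN was not called, at 19.0 ± 1.26 CPM under hypoxia and 19.2 ± 1.06 CPM under normoxia (-0.02 ± 0.081). ACE was not called either (0.48 ± 0.21). It was called higher from exon reads alone and without normoxia replicate 1 (adjusted p = 0.0419 and 0.0433 by edgeR).

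Of the FAM71 relatives, FAM71E1 averaged 3.22 ± 0.40 CPM in hypoxia libraries and 1.43 ± 0.29 CPM in normoxia libraries (log2 change 1.17 ± 0.23 SE, adjusted p = 9.50e-05 by edgeR). FAM71A, FAM71B, FAM71C and FAM71D had at most 5 reads over the libraries of either condition. RAB2A, a GTPase bound by this family in mouse, was higher at 133 ± 6.88 against 101 ± 1.496 CPM (0.39 ± 0.042, adjusted p = 2.67e-09 by edgeR), and RAB2B was not called (-0.10 ± 0.077).

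Of the lipases, PNLIP itself had 28 reads under hypoxia and 9 under normoxia and was not tested. PNLIPRP1 and PNLIPRP2 had no row of that symbol and were not analysed here. The related lipase genes LPL (57.3 ± 3.57 CPM under hypoxia, 42.3 ± 1.75 under normoxia, adjusted p = 1.10e-07 by edgeR) and LIPC (6.52 ± 0.82 and 3.998 ± 1.15 CPM, adjusted p = 9.78e-04 by edgeR) were higher. LIPC was not called from exon reads alone (log2 change 0.47, adjusted p = 0.164 by edgeR). LIPG stood at 104 CPM in both conditions (log2 change -0.00 ± 0.042 SE). Of the genes of triglyceride breakdown inside cells, the lipase PNPLA2 fell by 0.57 on the log2 scale (adjusted p = 9.62e-08 by edgeR) and its activator ABHD5 by 0.42 (adjusted p = 3.74e-12 by edgeR). G0S2, which inhibits PNPLA2, was higher at 2.40 ± 0.23 against 1.20 ± 0.44 CPM (adjusted p = 0.00277 by edgeR). LIPE, MGLL and PNPLA3 were not called. LIPE was called higher from exon reads alone (adjusted p = 0.00691 by edgeR), and MGLL without hypoxia replicate 3 (adjusted p = 0.0397 by edgeR).

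Among the nephrin relatives, NPHS1, which codes for nephrin, had 4 reads under hypoxia and 6 under normoxia. KIRREL3 had 13 reads in each condition, all of them intronic. KIRREL1 was at 51.1 ± 2.71 CPM under hypoxia and 45.1 ± 3.94 CPM under normoxia (log2 change 0.18 ± 0.061 SE, adjusted p = 0.0142 by edgeR), overlapped between the conditions, and lost its call when only library size was scaled for (adjusted p = 0.130 by edgeR) and on leaving out any 1 of 4 libraries (hypoxia 1 or 2, normoxia 1 or 2). Signalling partners of the nephrin complex that rose were the kinase FYN (34.6 ± 2.24 CPM under hypoxia, 20.02 ± 0.40 under normoxia, adjusted p = 3.22e-11 by edgeR), the adaptor NCK2 (0.48 ± 0.044, adjusted p = 7.69e-11 by edgeR) and the actin-binding SYNPO (0.62 ± 0.069, adjusted p = 4.94e-09 by edgeR). IQGAP1 (0.36) and PODXL (0.21) rose too, and CASK (0.13) passed narrowly (adjusted p = 0.0468 by edgeR). CASK missed the call in 9 of the 14 other settings tried. The second adaptor, NCK1, fell by 0.25 (adjusted p = 3.23e-04 by edgeR) and WT1 by 0.61 (adjusted p = 0.00504 by edgeR), though WT1 lost its call without normoxia replicate 1 (adjusted p = 0.0630 by edgeR).

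**Figure D4:**
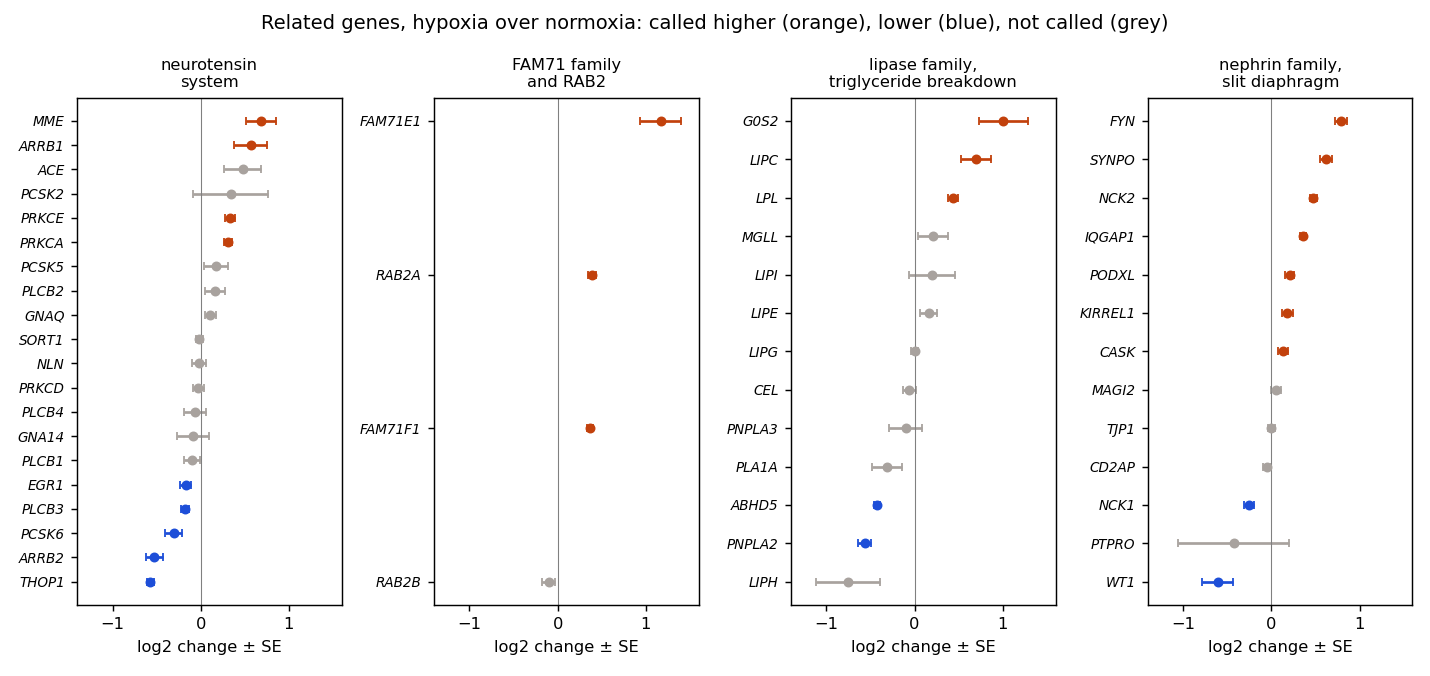
Log2 change of hypoxia over normoxia with its SE (x axis) for the tested genes of 4 lists, sorted within each list, in orange where called higher, blue where called lower and grey where not called. Related genes lie between -0.76 (LIPH) and 1.17 (FAM71E1), on an axis that does not reach the 4 genes themselves (4.75 to 6.87).

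Markers of the cell types in which the 4 genes are best known were looked at beside them. The islet hormone genes INS, GCG and SST had 0 reads in every library, and the 5 measured islet markers summed to 0.92 to 1.29 TPM under hypoxia and 1.16 to 1.79 TPM under normoxia. For podocytes, NPHS1 had 4 reads under hypoxia and 6 under normoxia, while 3 of 6 markers (SYNPO, PODXL and WT1) reached 1 TPM in both, and the summed level was 31.5 to 34.4 TPM under hypoxia and 28.1 to 30.2 TPM under normoxia. None of 8 measured germ cell markers reached 1 TPM, with sums of 0.38 to 0.78 TPM under hypoxia and 0.25 to 0.39 TPM under normoxia. Of 3 measured exocrine pancreas markers, only CEL reached 1 TPM (9.45 TPM under hypoxia, 9.29 under normoxia), and the sums were 9.20 to 10.6 TPM under hypoxia and 9.04 to 11.1 TPM under normoxia. Of 5 measured neuron markers 1, SNAP25, did so, and the sums were 4.16 to 5.71 TPM under hypoxia and 2.35 to 4.40 TPM under normoxia. The endothelial sum was 5.99 to 6.33 TPM under hypoxia and 3.65 to 4.63 TPM under normoxia, with 3 of 5 markers at 1 TPM or more under hypoxia, 1 of 5 under normoxia, and PECAM1 at 12 and 13 reads. Of 5 leukocyte markers CD79A alone was above 1 TPM (505 and 510 TPM). The leukocyte sums were 485 to 519 TPM under hypoxia and 494 to 523 TPM under normoxia, and nearly all of them was CD79A. CD3E was listed at 0 TPM, and PTPRC had 25 and 32 reads. Whether the CD79A model holds reads of other genes was not tested. The endothelial, podocyte and epithelial sums were higher in every hypoxia library than in any normoxia library, while the neuron sums overlapped. Their part in the rises of the 4 genes was not tested.

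No annotated gene overlapped any of the 4 models. Among the 4 nearest named genes on each side of each, 22 were tested, of which 10 were higher and 2 lower, where 24.5% and 24.4% of all tested genes were. When only library size was scaled for, 7 were higher and 5 lower. KIRREL2 lies 1724 bases from NPHS1, which points the other way and held 4 and 6 reads as given above. On its other side, 1699 bases away on the same strand, APLP1, an amyloid precursor relative, was higher at 39.6 ± 1.38 CPM under hypoxia against 27.99 ± 0.84 CPM under normoxia (log2 change 0.50 ± 0.062 SE, adjusted p = 4.94e-08 by edgeR). NFKBID, PRODH2 and ARHGAP33 were not called. The reads of PRODH2 (6201 under hypoxia, 6060 under normoxia) were all of the intron class, and its TPM was 0 in both conditions. Its model spans that of ARHGAP33, as the APLP1 model spans that of NFKBID. Whether these models hold reads of the genes inside them was not tested.

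Beside NTSR1, the organic anion transporter gene SLCO4A1 ended 15677 bases before it on the same strand. It averaged 2.51 ± 0.55 CPM in hypoxia libraries and 0.82 ± 0.16 CPM in normoxia libraries (log2 change 1.604 ± 0.28 SE, adjusted p = 1.78e-05 by edgeR), the largest change among the tested named neighbours. MRGBP, at 19462 bases on the other side, was not called (-0.29 ± 0.12), though it was called lower in 4 of the 14 other settings. COL9A3 was not called either (0.73 ± 0.34, adjusted p = 0.130 by edgeR), but was called without hypoxia replicate 3 (1.00, adjusted p = 4.58e-06 by edgeR) and with no filter (0.73, adjusted p = 3.38e-05 by edgeR). ADRM1 was slightly higher (0.16) and GID8 slightly lower (-0.20). The ADRM1 model spans 216173 bases, and 38.2% of its reads were of the intron class. Its call was lost from intron reads alone (adjusted p = 0.0908 by edgeR). Whether it holds reads of other genes was not tested.

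Beside PNLIPRP3, its relative PNLIP lay 48096 bases away with the 28 and 9 reads given above, in a model of 72949 bases. In the RefSeq gene order of another dog assembly PNLIPRP1 and PNLIPRP2 follow PNLIP there. Whether this model holds their reads was not tested. GFRA1, a co-receptor of the growth factor GDNF, lay 148266 bases away and was higher (10.2 ± 0.61 CPM under hypoxia, 4.56 ± 0.38 under normoxia, adjusted p = 4.60e-09 by edgeR). HSPA12A was higher by 0.43 ± 0.074, and CCDC172, the nearest named gene, was not called (0.14 ± 0.083). Of the CCDC172 reads 99.5% were of the intron class, and its exon reads were not tested.

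Beside FAM71F2, 5 of 7 tested named neighbours were higher, all by less than 0.4 on the log2 scale except OPN1SW (1.14 ± 0.46, adjusted p = 0.0394 by edgeR), whose 62 and 26 reads were 93.2% intronic and whose call was lost in 9 of the 14 other settings. The count of 5 dropped to 3 without hypoxia replicate 2, without normoxia replicate 2 or from exon reads alone, and to 2 from intron reads alone or when only library size was scaled for. Apart from OPN1SW, the genes that lost calls in these settings were FLNC, CCDC136 and IMPDH1. The largest fall was that of RBM28, a nucleolar splicing factor (-0.68 ± 0.049, adjusted p = 2.53e-13 by edgeR). FAM71F1, 12244 bases away on the same strand, stood at 343 ± 7.78 CPM under hypoxia and 267 ± 6.86 CPM under normoxia (0.36 ± 0.035, adjusted p = 1.53e-10 by edgeR). Its model spans 53003 bases, and the RefSeq gene order places CALU between it and OPN1SW, which had no row of that symbol. Whether the FAM71F1 model holds reads of CALU was not tested.

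On the other side of FAM71F2, 9467 bases upstream of its start on the same strand, lay a single-exon coding model of 216 bases without a symbol (ENSCAFG00000032016), which was singled out after its values were seen. It had 578, 589 and 611 reads under hypoxia, against 72, 75 and 63 reads under normoxia. All hypoxia libraries were about alike and far above normoxia. The mean was 21.6 ± 1.35 CPM under hypoxia and 2.69 ± 0.045 CPM under normoxia (log2 change 3.00 ± 0.12 SE, adjusted p = 2.40e-20 by edgeR), and 67.9% of its hypoxia reads ran past the annotated exon. In the RefSeq order of the other assembly the coding gene next to FAM71F2 on this side is HILPDA, known as a hypoxia-induced protein of lipid droplets. The tables share no identifier, so the model was not matched to HILPDA. Whether reads that reach beyond this model contribute to those of FAM71F2 was not tested.

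**Figure D5:**
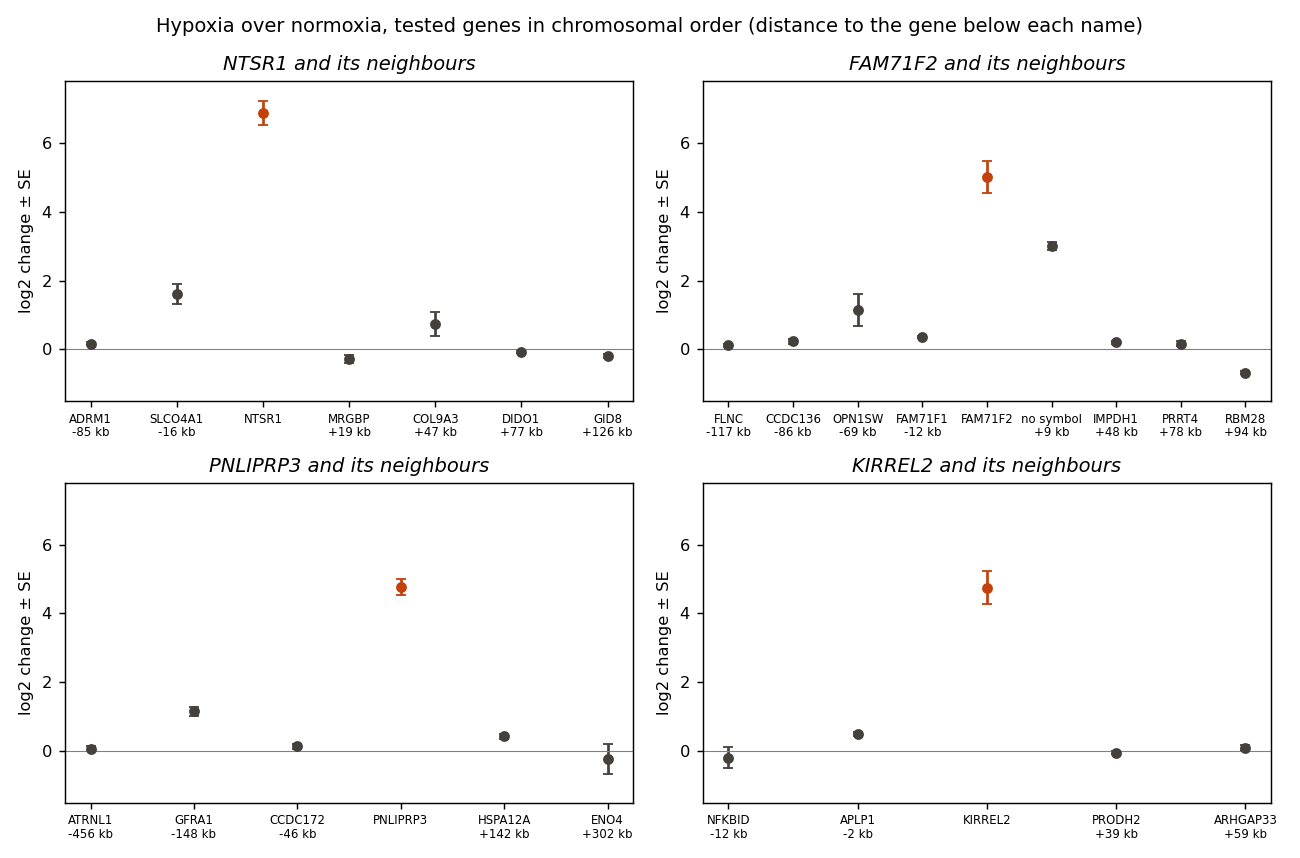
Log2 change of hypoxia over normoxia ± SE (y axis) for each of the 4 genes (orange) and its tested neighbours (black), in chromosomal order with the distance in kilobases under each name and negative distances towards lower coordinates. Steps along the x axis are ranks, not distances. The 4 genes stand at 4.75 to 6.87, the largest named neighbour is SLCO4A1 at 1.604, and the model without a symbol beside FAM71F2 is at 3.00.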

How the data were processed

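Polyadenylated RNA of CMM10 cells was sequenced in 3 hypoxia and 3 normoxia libraries, grouped by the treatment label. The authors deposited 1 table a library with counts of reads for every gene and for its exons, junctions and introns, in all and uniquely mapped, per the file headers. TPM is the expression value that the authors deposited beside them. Coordinates follow CanFam3.1, per the submitters' processing notes. What aligned and counted the reads is not given in the sources used here. The kit named in the labels' protocols does not mark strand, so antisense reads cannot be told apart. Here total gene reads were filtered by filterByExpr, scaled by TMM and tested with edgeR 4.0.16 (quasi-likelihood, robust, R 4.3.3, limma 3.58.1), with Benjamini-Hochberg adjustment over 15397 genes. SE is the absolute log2 change over the square root of the F statistic. DESeq2 1.42.0 served as an alternative, with the settings named in the closing part, and the test was checked on simulated counts. The genes, lists and tests were chosen with earlier results of these data known, and all 4 genes passed the filter through the hypoxia libraries alone. Named genes were all called list members of at least 1 CPM, where the plan was up to 6 a list by size of change. Also named were relatives of the 4 genes, the uncalled peptidases of the neurotensin list, called neighbours, and near-silent genes by read number. Gene order came from RefSeq (UU_Cfam_GSD_1.0), whose table held all 4 symbols. No sequence is shown. Between replicates, chi-square per gene averaged 4.29 to 13.7 (median 1.195 to 1.515) with reads taken as independent, and no libraries were merged.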

Additional observations from a re-analysis of the deposited data

How the results depend on the processing

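The log2 changes of the 4 genes and the counts of called genes, related genes and neighbours were recomputed in 14 other settings: library size as the only scaling, DESeq2 size factors, the DESeq2 Wald test, no filter, exon, intron or unique reads only, a replicate block, and each library left out. No direction was reversed for the 4 genes. From intron reads only, the log2 change was 4.20 for NTSR1 and 3.12 for PNLIPRP3, and from exon reads only it was 6.38 for PNLIPRP3. Intron reads of KIRREL2 were too few to test. NTSR1 was fitted from exon reads only, but that value is not given because its normoxia exons held 0 reads. Leaving out 1 library gave 6.38 to 7.23 for NTSR1, 4.42 to 5.99 for FAM71F2, 4.51 to 5.02 for PNLIPRP3 and 4.54 to 4.86 for KIRREL2. The lowest NTSR1 and the highest FAM71F2 value came without normoxia replicate 3.

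Over all genes, 3778 were called higher and 3761 lower, and 50.1% of calls were higher. With library size as the only scaling 38.8% of calls were higher (3076 against 4862), and 5 neighbours were lower instead of 2. Intron reads only gave 2173 genes lower and 5 neighbours higher instead of 10, with fewer genes tested. Related genes numbered 17 higher and 9 lower, and 13 to 17 and 6 to 10 in the other settings. No label says that equal replicate numbers mark paired libraries, so they were not paired in the main test. Deviations from the group means of libraries with equal numbers correlated at -0.09, 0.03 and -0.05. With 3 libraries a group these values cannot settle whether libraries were paired. With the replicate block 3769 genes were higher and 3793 lower, NTSR1 was at 6.88 and FAM71F2 at 5.03. OPN1SW lost its call and PRRT4 gained one. Depth limits the normoxia side, where 3 reads equal 0.11 to 0.13 CPM.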

Other observations

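Of 1408 genes with no normoxia read and at least 1 hypoxia read, 7 had 30 or more hypoxia reads. IGFBP2 led them with 37, 30 and 27 reads in hypoxia libraries 1, 2 and 3. ITIH2, a subunit of a plasma protease inhibitor family, had 12, 20 and 17 hypoxia reads. The acute-phase gene listed as SAA1_1 had 10, 15 and 28. The other two of the 5 genes with the most reads, both without a symbol, had all of their 57 and 54 reads in hypoxia library 3 alone. Both are listed here after their values were seen.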
